A study of Homo sapiens with 8 samples.

Results

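The ERK pathway feedback genes described here are 10 genes that restrain or report signalling through the kinase ERK: the phosphatases DUSP4, DUSP5 and DUSP6, the Sprouty genes SPRY1, SPRY2 and SPRY4, their relatives SPRED1 and SPRED2, and the transcription factors ETV4 and ETV5. They were chosen by name, and each had exactly 1 row with a single gene symbol, so all 10 were measured, among 14271 genes and 18495 rows in all. The study depleted the splicing regulators ESRP1 and ESRP2 from PNT2 cells, an established immortalized line of human prostatic epithelium. Affymetrix exon arrays measured total RNA of 4 samples given siRNA against both ESRP1 and ESRP2 (siESRP) and 4 given siRNA against GFP (siGFP), the control. All cells were unmodified PNT2 grown in the same serum-containing medium, 1 line stands for the tissue, and siRNA depletes its targets only in part. The values are 1 gene-level intensity per row, so splicing was not measured. Nothing in the labels says whether the samples of a group were grown separately, so the p-values cover only sample-to-sample spread, part or all of which could be technical.

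Growth factor receptors signal through RAS and the RAF and MEK kinases to ERK, which enters the nucleus and induces genes for its own restraint. DUSP4 and DUSP5 are nuclear phosphatases and DUSP6 a cytoplasmic one, and all of them remove phosphate from ERK. Sprouty and SPRED proteins act further up, on receptor adaptors, RAS and RAF, and ETV4 and ETV5 are ETS-type transcription factors of the PEA3 group that rise with FGF and ERK signalling in many epithelia. In prostate epithelium, FGF and EGF family ligands are well-known sources of this signal.

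Promoter sequence is shown for DUSP6 and SPRED2, members that rose, and for SPRED1, the close relative of SPRED2 that did not pass the test. The RefSeq table of GRCh38.p14 held windows for 6 of the 10 members, of 300 bases each, with 250 before and 50 after a start site. Capitals mark matches, on either strand, to the ETS core CGGAA, the AP-1-like pattern TGANTCA (N being any base) and the CRE element GACGTCA. None of the matches overlap here. The windows are those of DUSP6 at chr12:89352452-89352751, SPRED2 at chr2:65432550-65432849 (start site A) and chr2:65366729-65367028 (start site B), all on the minus strand, and SPRED1 at chr15:38252586-38252885 on the plus strand.
DUSP6: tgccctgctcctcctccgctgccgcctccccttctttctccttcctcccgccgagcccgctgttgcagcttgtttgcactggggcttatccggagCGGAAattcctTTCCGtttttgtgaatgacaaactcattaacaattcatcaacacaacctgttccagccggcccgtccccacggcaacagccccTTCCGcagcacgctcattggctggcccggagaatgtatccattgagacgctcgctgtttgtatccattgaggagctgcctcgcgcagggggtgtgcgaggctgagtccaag
SPRED2 start site A: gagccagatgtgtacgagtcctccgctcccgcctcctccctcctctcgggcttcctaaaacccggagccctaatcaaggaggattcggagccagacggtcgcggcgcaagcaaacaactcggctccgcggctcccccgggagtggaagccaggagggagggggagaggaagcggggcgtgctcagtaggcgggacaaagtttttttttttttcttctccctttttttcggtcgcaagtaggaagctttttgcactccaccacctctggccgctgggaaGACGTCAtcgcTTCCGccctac
SPRED2 start site B: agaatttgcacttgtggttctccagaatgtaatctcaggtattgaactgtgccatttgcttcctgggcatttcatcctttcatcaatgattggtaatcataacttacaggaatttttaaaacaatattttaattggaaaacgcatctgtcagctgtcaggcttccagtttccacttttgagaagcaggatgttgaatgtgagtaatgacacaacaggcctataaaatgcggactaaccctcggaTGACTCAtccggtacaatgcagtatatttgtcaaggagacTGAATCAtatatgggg
SPRED1: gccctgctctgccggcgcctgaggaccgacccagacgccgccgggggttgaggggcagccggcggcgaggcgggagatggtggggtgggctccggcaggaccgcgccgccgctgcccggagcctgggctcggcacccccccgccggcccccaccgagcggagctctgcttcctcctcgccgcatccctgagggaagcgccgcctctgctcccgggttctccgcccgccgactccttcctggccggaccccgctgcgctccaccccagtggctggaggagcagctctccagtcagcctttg
The DUSP6 window held 3 matches to the ETS core, which 34.9% of 35116 windows of this length contain. SPRED2 had 1 ETS core and 1 CRE match at start site A. At start site B it had 2 AP-1-like matches, TGACTCA and TGAATCA. Of all these windows, 3.45% hold the CRE element and 7.71% the AP-1-like pattern. The SPRED1 window held no match to the 3 motifs, nor did that of SPRY4. SPRY2 and SPRY1, which did not pass, had 2 ETS core matches and 1. For each gene these lay in 1 window, not shown, and its other windows held no match. DUSP5, which also rose, had no window. Whether matches go with the test result was not tested. These matches describe the sequence and are not evidence of binding.

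The rows of both siRNA targets were lower in siESRP, but ESRP2 had no row of its own. ESRP1 averaged 582 ± 66.9 in siESRP and 2439 ± 169 in siGFP (SD, n = 4 each, limma adjusted p = 6.58e-05), and the row that ESRP2 shares with NFATC3 averaged 148 ± 27.4 in siESRP and 531 ± 33.4 in siGFP (limma adjusted p = 0.000336). Of 9 measured epithelial markers, 4 rose, 1 fell and 4 did not pass, and group means reached 6964, that of KRT8 in siESRP. The marker that fell was the basal keratin KRT14, whose close paralogues make its value uncertain. It averaged 367 ± 41.6 in siESRP and 765 ± 161 in siGFP (SD, n = 4 each, limma adjusted p = 0.00465). The keratins KRT15, KRT18 and KRT19 rose, KRT15 from 151 ± 20.6 in siGFP to 231 ± 20.1 in siESRP (limma adjusted p = 0.00878). CDH1 rose as well, at 3042 in siESRP and 2137 in siGFP. The secretory luminal markers KLK2, KLK3 and TMPRSS2 all had group means under 80. The summed level of 7 fibroblast and smooth muscle markers was 420 to 492 in siESRP and 515 to 595 in siGFP, that of 5 leukocyte markers 206 to 286 in siESRP and 273 to 318 in siGFP, and that of 5 endothelial markers 416 to 503 in siESRP and 348 to 406 in siGFP. CSF1R, the leukocyte marker that fell, averaged 80.9 in siESRP and 154 in siGFP, while 3 of those 5 markers had differences above 0. CDH5, which rose, averaged 324 in siESRP and 241 in siGFP, and another endothelial marker, TEK, fell, with 22.1 in siESRP and 30.2 in siGFP. No marker had a group mean of 0. Their part in the results was not tested, and in bulk RNA fewer cells expressing a gene and less RNA per cell cannot be told apart.

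Of the 10 feedback genes, 3 rose in siESRP and 7 did not pass the test. DUSP6 rose 1.95-fold, SPRED2 1.58-fold and DUSP5 1.53-fold, and 0 members fell. Of all 18495 rows, 20.2% were called, 10.9% as higher and 9.31% as lower in siESRP (limma, Benjamini-Hochberg adjusted p under 0.05). Apart from SPRY1, at least 59.7% of rows lay at or below each member in mean brightness. Shares over rows of like brightness were not computed. All 10 members had a log2 difference above 0, as did 45.0% of all rows, and their median log2 difference was 0.25, against −0.02 over all rows. The members' median was 0.17 with arrays as deposited and 0.16 with median scaling, where the median of all rows was −0.10 and −0.11. With each of these scalings all 10 differences stayed above 0.

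**Figure D1:**
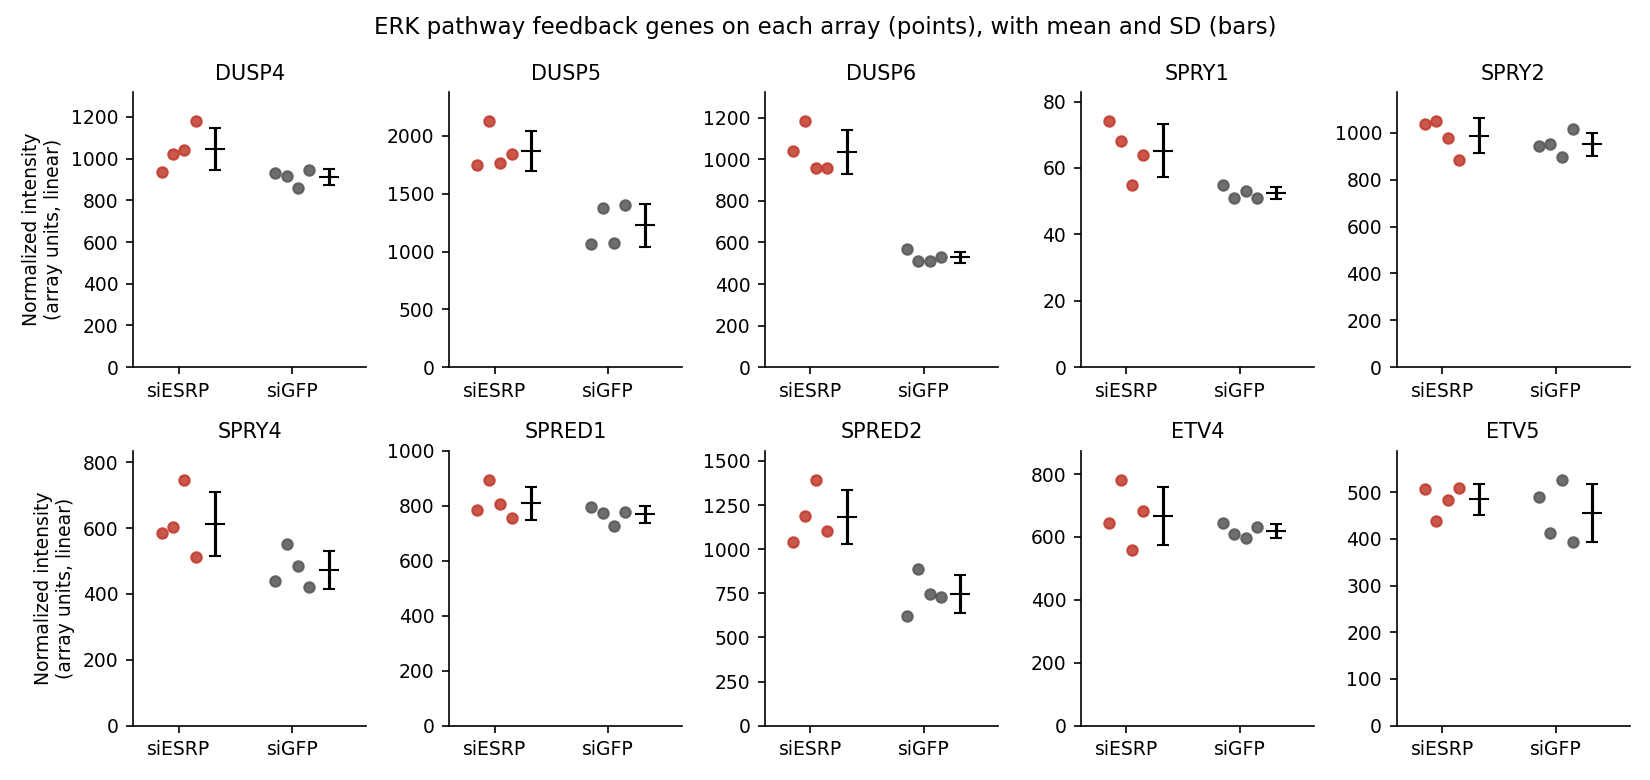
Normalized intensity (linear array units, axes starting at 0) of each feedback gene on the 4 siESRP and 4 siGFP arrays. Each point is 1 array and the bar beside it the mean with its SD. DUSP5, DUSP6, SPRED2 and the dim SPRY1 have groups that do not overlap.

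Among the phosphatases, DUSP6, the cytoplasmic enzyme specific for ERK, changed most. Its normalized intensity was 1038, 1182, 958 and 959 on the siESRP arrays, against 567, 510, 513 and 528 on the siGFP arrays. Every siESRP array thus lay above every siGFP array by a wide gap, with replicate 2 the highest of siESRP. The means were 1034 ± 105 in siESRP and 529.5 ± 26.1 in siGFP (SD, n = 4 each). The log2 difference was 0.96 ± 0.08 (SE, limma adjusted p = 0.000435), with a 95% interval of 1.71-fold to 2.22-fold, and DUSP6 ranked 229 of 18495 rows by p.

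DUSP5, a nuclear phosphatase that also anchors ERK in the nucleus, followed. Its intensities were 1751, 2125, 1768 and 1847 in siESRP and 1062, 1380, 1070 and 1400 in siGFP. The groups did not overlap, although the siGFP arrays themselves split into a lower pair, replicates 1 and 3, and a higher pair, replicates 2 and 4. Means were 1873 ± 174 in siESRP and 1228 ± 187 in siGFP, a log2 difference of 0.62 ± 0.12 (SE, n = 4 each, limma adjusted p = 0.0127). The 95% interval was 1.26-fold to 1.87-fold.

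DUSP4, the other nuclear phosphatase of the set, acts on ERK and also on the stress kinases JNK and p38. It measured 938, 1023, 1041 and 1178 in siESRP and 930, 918, 857 and 946 in siGFP. The lowest siESRP array lay within the siGFP range, so the groups overlapped. Its log2 difference of 0.19 ± 0.08 (SE, n = 4 each) had an unadjusted limma p of 0.0373 and an adjusted p of 0.124, with a 95% interval of 1.01-fold to 1.29-fold.

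The Sprouty genes encode membrane-associated inhibitors that are induced by growth factors, and none passed. SPRY4 measured 586, 603, 746 and 512 in siESRP and 439, 551, 484 and 420 in siGFP, with replicate 3 the highest of siESRP and replicate 2 the highest of siGFP. One siESRP array, replicate 4, lay below the highest siGFP array. The means were 612 ± 98.0 in siESRP and 474 ± 58.0 in siGFP, with a log2 difference of 0.36 ± 0.13 (SE, n = 4 each, limma adjusted p = 0.107) and a 95% interval of 1.03-fold to 1.60-fold.

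SPRY1 was dim, with 28.4% of rows at or below its mean brightness. Its intensities were 74, 68, 55 and 64 in siESRP and 55, 51, 53 and 51 in siGFP. After rounding the lowest siESRP array equals the highest siGFP array, and unrounded the groups just failed to overlap. The log2 difference was 0.31 ± 0.09 (SE, n = 4 each, limma adjusted p = 0.0592). SPRY1 was called without siESRP replicate 3 (adjusted p = 0.0108), with array weights (0.0165) and without the dimmest 25% of rows (0.0439). Over the 16 alternatives the adjusted p ran from 0.0108 to 0.465. The size of its difference depended on the scaling. It was 0.16 with arrays as deposited (limma adjusted p = 0.465) and 0.14 with median scaling (limma adjusted p = 0.422).

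SPRY2, a Sprouty that also binds the ubiquitin ligase CBL, had 1039, 1048, 978 and 884 in siESRP and 944, 952, 896 and 1015 in siGFP. The siGFP arrays lay wholly inside the siESRP range. Its log2 difference was 0.05 ± 0.07 (SE, n = 4 each, limma adjusted p = 0.670), with a 95% interval of 0.926-fold to 1.16-fold.

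SPRED1 and SPRED2 bind neurofibromin and bring it to the membrane, where it switches RAS off. SPRED2 rose in siESRP, with 1042, 1186, 1392 and 1102, against 624, 888, 747 and 729 in siGFP. The groups did not overlap, and replicate 3 was the highest siESRP array. The means of 1181 ± 153 in siESRP and 747 ± 108 in siGFP gave a log2 difference of 0.66 ± 0.13 (SE, n = 4 each, limma adjusted p = 0.0126), with a 95% interval of 1.28-fold to 1.96-fold.

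SPRED1 measured 784, 893, 806 and 753 in siESRP and 796, 772, 726 and 778 in siGFP. The groups overlapped, with 2 siESRP arrays inside the siGFP range and 2 above it. The log2 difference was 0.07 ± 0.06 (SE, n = 4 each, limma adjusted p = 0.486), with a 95% interval of 0.949-fold to 1.17-fold.

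ETV4 and ETV5, the transcription factors of the set, had near-equal differences and neither passed. ETV4 had 644, 781, 557 and 683 in siESRP and 644, 608, 595 and 633 in siGFP, so the siESRP arrays spread on both sides of the control arrays. ETV5 had 507, 438, 483 and 509 in siESRP and 489, 412, 526 and 394 in siGFP, and its highest array was a siGFP one. The log2 differences were 0.09 ± 0.10 for ETV4 (limma adjusted p = 0.578) and 0.10 ± 0.11 for ETV5 (limma adjusted p = 0.598; SE, n = 4 each). The 95% intervals ran from 0.906-fold to 1.26-fold for ETV4 and from 0.897-fold to 1.27-fold for ETV5.

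**Figure D2:**
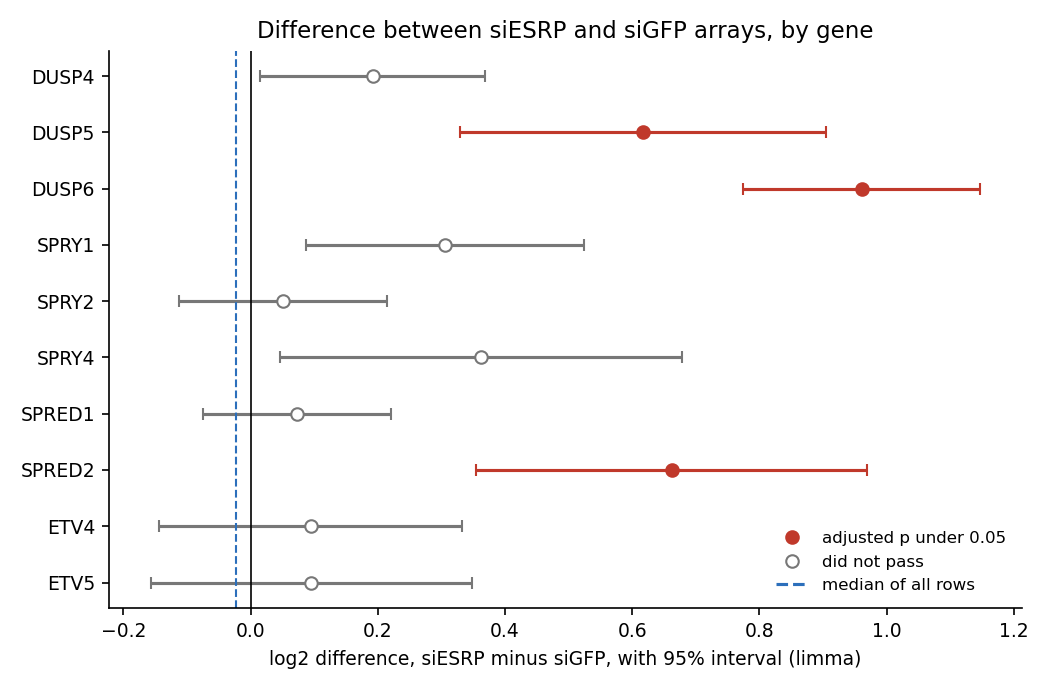
Log2 difference of each feedback gene, siESRP minus siGFP, with its 95% interval from limma. Filled points passed at adjusted p under 0.05 (DUSP6, SPRED2 and DUSP5), open points did not, and the dashed line at −0.02 is the median of all rows.

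Groups of 4 arrays that do not overlap were found for 4 of the 10 members, DUSP5, DUSP6, SPRED2 and SPRY1, all higher in siESRP. Over all rows, 24.6% had groups that do not overlap and 12.6% did so with siESRP higher. Replicate 2 was the highest siESRP array for 5 members, DUSP5 and DUSP6 among them, replicates 3 and 4 for 2 each and replicate 1 for 1. Leaving out each of the 8 arrays in turn gave log2 differences of 0.90 to 1.00 for DUSP6, 0.58 to 0.75 for SPRED2 and 0.55 to 0.69 for DUSP5, and all of these passed. At the stricter adjusted p under 0.01, which 6.03% of all rows passed as higher in siESRP, DUSP6 was the 1 member called.

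Passing in one gene and not in its relative does not show that the relatives differ, so 8 pairs within the families were compared array by array. On each array the log2 value of one gene was subtracted from that of the other, and the groups were compared with a two-sided exact permutation test. The smallest p that 4 against 4 arrays allow is 0.0286. At that unadjusted p stood 3 pairs, and 0 of 8 passed after Benjamini-Hochberg adjustment. An adjusted p under 0.05 would have needed at least 5 pairs at the smallest p, so a pair with fully separated groups could not pass here, and the adjusted values do not show that relatives changed alike.

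The difference DUSP6 minus DUSP4 was 0.15, 0.21, −0.12 and −0.30 in siESRP and −0.71, −0.85, −0.74 and −0.84 in siGFP. These groups lie far apart, with a change of 0.77 ± 0.12 (SE, exact permutation p = 0.0286, adjusted p = 0.0762). For SPRED2 minus SPRED1 the change was 0.59 ± 0.15 (SE, exact permutation p = 0.0286, adjusted p = 0.0762), and all siESRP values were above all siGFP values. DUSP5 minus DUSP4 changed by 0.43 ± 0.13 (SE, exact permutation p = 0.0286, adjusted p = 0.0762).

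The remaining pairs overlapped or missed the smallest p. DUSP6 minus DUSP5 changed by 0.34 ± 0.14 (SE, exact permutation p = 0.0571, adjusted p = 0.114), and SPRY4 minus SPRY2 by 0.31 ± 0.15 (exact permutation p = 0.114, adjusted p = 0.152). ETV5 minus ETV4 was nearly the same in both groups, at −0.45 ± 0.27 in siESRP and −0.45 ± 0.22 in siGFP (SD, n = 4 each, exact permutation p = 1.0). The other two Sprouty pairs, both against the dim SPRY1, had exact permutation p of 0.0857 and 0.886.

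**Figure D3:**
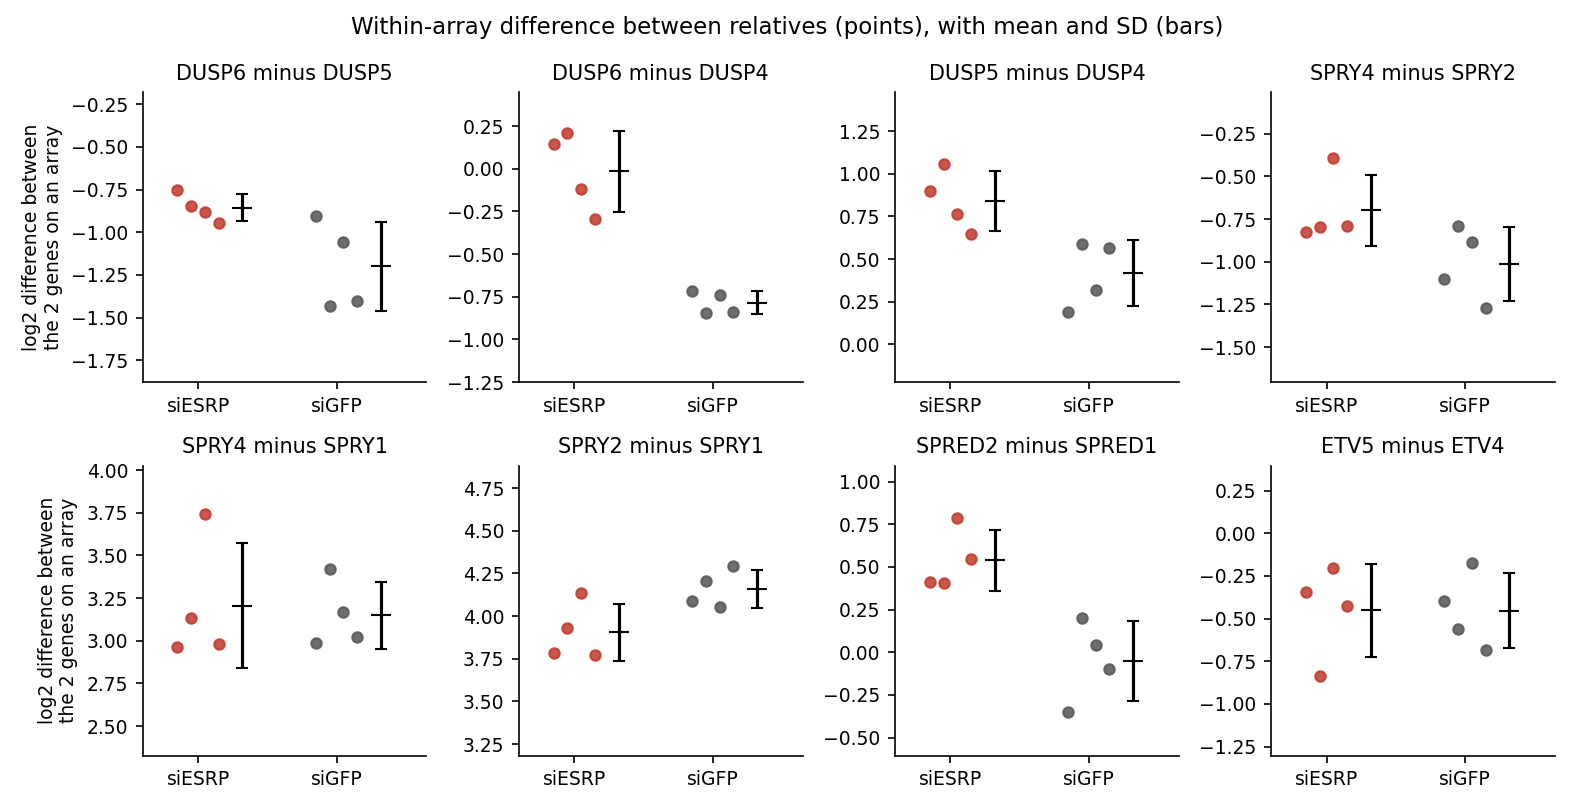
Log2 difference between 2 relatives on each array, for the 8 pairs, with siESRP left and siGFP right in each panel. Points are arrays and bars the mean with SD. The level on an axis depends on the probes, and only the shift between groups is compared. DUSP6 minus DUSP4, DUSP5 minus DUSP4 and SPRED2 minus SPRED1 have groups that do not overlap.

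Other genes of the pathway were taken from 4 lists: the ERK cascade, further genes that restrain RAS or ERK, immediate early and ERK-induced genes, and further ETS factors. Of their 58 measured genes, 13 rose and 7 fell. That is 22.4% higher and 12.1% lower, beside 10.9% and 9.31% of all rows. The count of 20 moved with the processing, to 13 without siESRP replicate 1, 12 without siESRP replicate 4, 13 without siGFP replicate 3 and 8 with arrays as deposited.

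Of 9 measured cascade genes, 2 rose, 1 fell and 6 did not pass, with a median log2 difference of −0.07. SHC1, an adaptor that links receptors to RAS, averaged 2475 ± 138 in siESRP and 2065 ± 134 in siGFP (SD, n = 4 each, limma adjusted p = 0.0295). MAPK3, which encodes ERK1, averaged 2014 ± 67.4 in siESRP and 1741 ± 128 in siGFP (limma adjusted p = 0.0491). The RAF kinase ARAF averaged 1190 ± 54.8 in siESRP and 1487 ± 115 in siGFP (limma adjusted p = 0.0165). PTPN11, the phosphatase SHP2 that promotes RAS signalling, had a log2 difference of −0.13 (limma adjusted p = 0.0938). The calls of SHC1 and MAPK3 ended with arrays as deposited (adjusted p = 0.375 and 0.450). With 1 array left out the adjusted p ran from 0.0368 to 0.0763 for SHC1, whose call ended without siESRP replicates 1, 3 or 4 or siGFP replicates 2 or 4, and from 0.0169 to 0.113 for MAPK3, whose call held only without siGFP replicate 1.

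The list of further restraining genes had 20 measured genes, not all of which act mainly on RAS or ERK. Of the 20, 3 rose, 3 fell and 14 did not pass, and the median log2 difference was 0.10. DUSP16, a phosphatase that acts mainly on JNK and p38, had 753, 817, 772 and 787 in siESRP and 538, 402, 437 and 451 in siGFP. The groups stood well apart, and it rose 1.72-fold (limma adjusted p = 0.00150). IL17RD, also called SEF, an inhibitor of FGF signalling, rose 1.48-fold from a dim row, at 117 ± 10.0 in siESRP and 79.1 ± 12.2 in siGFP (SD, n = 4 each, limma adjusted p = 0.0184). RASA2, a RAS GTPase-activating protein, rose 1.28-fold (limma adjusted p = 0.0121).

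DUSP10, another phosphatase of JNK and p38, ran the other way. It averaged 796 ± 83.8 in siESRP and 1101 ± 113 in siGFP, a log2 difference of −0.47 ± 0.10 (SE, n = 4 each, limma adjusted p = 0.0197). With arrays as deposited its adjusted p was 0.174, and those of IL17RD and RASA2 were 0.0641 and 0.201. Leaving out 1 array ended the call of DUSP10 without siESRP replicate 1 (0.0515) or siGFP replicate 3 (0.0537), and that of IL17RD without siESRP replicate 1 (0.0521) or replicate 4 (0.0515). LRIG1 and LRIG3, members of a receptor-regulating family, also fell, with log2 differences of −0.35 (limma adjusted p = 0.0451) and −0.41 (limma adjusted p = 0.0258). With 1 array left out their adjusted p ran from 0.0393 to 0.109 and from 0.0186 to 0.0697, and held for LRIG1 only without siESRP replicate 3 and for LRIG3 only without siESRP replicate 1 or 3 or siGFP replicate 1.

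Of 20 measured immediate early and ERK-induced genes, 6 rose, 1 fell and 13 did not pass, with a median log2 difference of 0.13. EGR1, a zinc finger transcription factor induced within minutes of ERK activation, had 1140, 1244, 1524 and 1217 in siESRP, against 591, 525, 577 and 545 in siGFP. The groups were widely separated, and it rose 2.28-fold (limma adjusted p = 0.000401). FOS, a subunit of AP-1, had 265, 310, 240 and 282 in siESRP and 165, 159, 157 and 174 in siGFP, and rose 1.67-fold (limma adjusted p = 0.00141). KLF10, a zinc finger factor best known as TGF-beta-inducible, rose 1.40-fold (limma adjusted p = 0.00340).

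The rises of CCND1, IER3 and ATF3 were 1.21-fold, 1.26-fold and 1.42-fold (limma adjusted p = 0.0280, 0.0483 and 0.0465). With 1 array left out the adjusted p ran from 0.0239 to 0.0709 for CCND1, from 0.0568 to 0.111 for IER3 and from 0.0291 to 0.111 for ATF3. CCND1 held only without siESRP replicate 1 or 3 or siGFP replicate 2, ATF3 only without siGFP replicate 2, and IER3 in none. The calls of CCND1, IER3 and ATF3 also ended with arrays as deposited (limma adjusted p = 0.198, 0.306 and 0.079). EPHA4, an ephrin receptor, was the gene of this list that fell, at 298 ± 25.5 in siESRP and 387 ± 26.1 in siGFP (SD, n = 4 each, limma adjusted p = 0.0155), and its adjusted p was 0.152 with arrays as deposited. FOSL1, an AP-1 subunit closely tied to sustained ERK activity, had a log2 difference of −0.15 (limma adjusted p = 0.485). PHLDA1 (−0.10) and JUN (−0.14) did not pass either. FOSL1, PHLDA1 and JUN do not stand for the list. Of its 20 measured genes, 14 had a log2 difference above 0, as did 45.0% of all rows.

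Of 9 further ETS factors, 2 rose, 2 fell and 5 did not pass. ETV1, the third member of the PEA3 group beside ETV4 and ETV5, had 627, 614, 683 and 732 in siESRP and 385, 483, 467 and 414 in siGFP. Its groups did not overlap, and it rose 1.52-fold (limma adjusted p = 0.00491); whether it changed more than ETV4 or ETV5 was not tested. ELK3, a ternary complex factor that binds promoters with SRF, had 1329, 1376, 1222 and 1291 in siESRP and 773, 867, 809 and 835 in siGFP, and rose 1.59-fold (limma adjusted p = 0.000445). ETS1 and ETS2, which ERK phosphorylates, averaged 1004 and 1698 in siESRP and 1359 and 2176 in siGFP (limma adjusted p = 0.00667 and 0.00313). With arrays as deposited the adjusted p of ETS1 was 0.0782 and that of ETS2 0.0916.

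**Figure D4:**
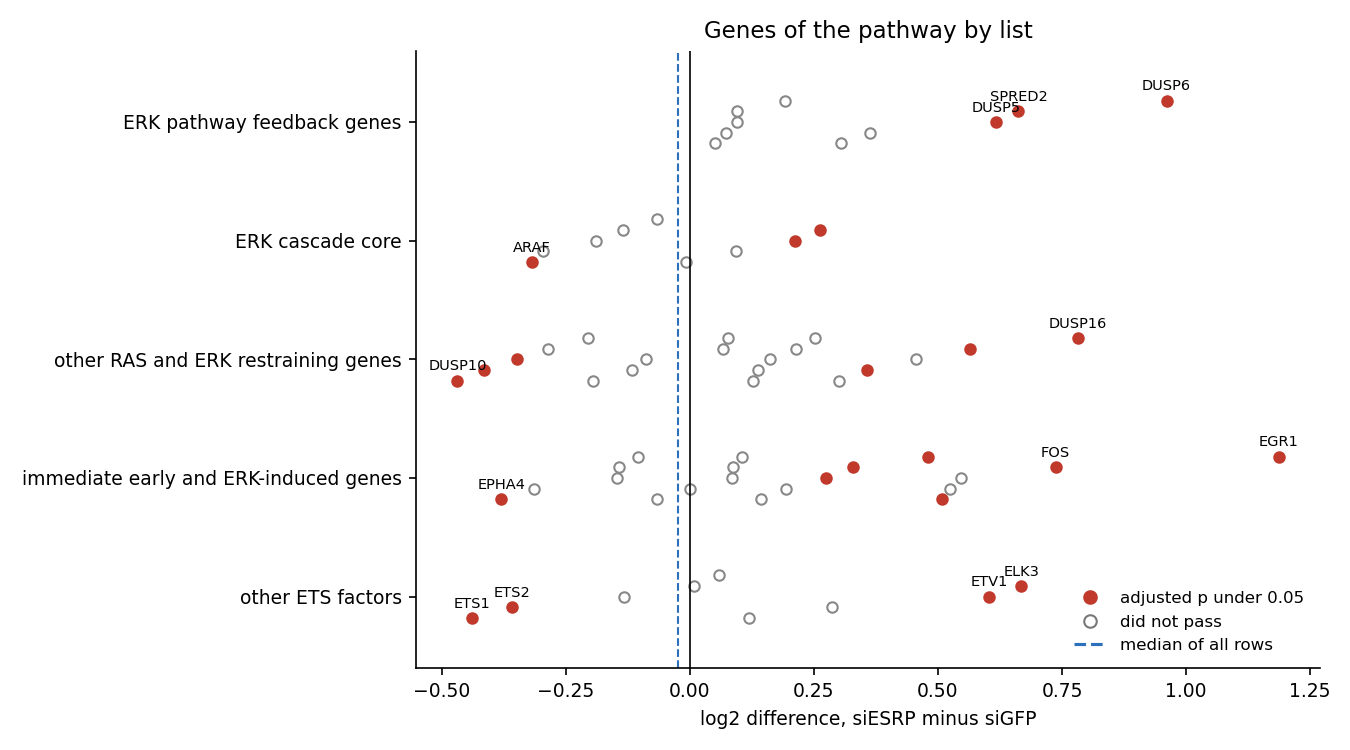
Log2 difference, siESRP minus siGFP, of each measured gene of the 5 lists, 1 point per gene with vertical spread only for legibility. Filled points passed at adjusted p under 0.05 and the dashed line at −0.02 is the median of all rows. DUSP6 and EGR1 lie farthest to the right, and called genes lie on both sides of 0 in each list except the feedback genes.

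The genes whose pattern over the 8 arrays was most like that of DUSP6 were SMARCA1, ITGA3 and DGKA. Pearson's r with DUSP6 was 0.997 for each, the highest among 9072 genes with both group means of at least 100. SMARCA1, a chromatin remodelling ATPase, averaged 1609 ± 132 in siESRP and 963 ± 40.4 in siGFP (SD, n = 4 each). ITGA3, an integrin chain that binds laminin, averaged 2546 ± 201 in siESRP and 1377 ± 39.99 in siGFP, and DGKA, a diacylglycerol kinase, averaged 1135 ± 109 in siESRP and 451 ± 36.9 in siGFP. Such correlations are carried mostly by the step between the groups and share the 8 arrays, so they are a description only.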

How the data were processed

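RNA from 4 siESRP and 4 siGFP samples of PNT2 cells was measured, each on its own exon array. The authors deposited linear intensity values for 18495 rows; how they corrected background, summarized probes and scaled arrays is not given in the sources used. Per array, 2.70% to 4.02% of rows were below 0, and array medians ran from 233 to 286. Linear values were therefore quantile normalized between arrays, any below 0 became 0, and log2(value + 1) followed; the written design had not foreseen the floor. Means ± SD are normalized intensities, fold changes are differences of log2(value + 1) and understate changes of dim rows, and the number of arrays limits the precision.

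The two-sided test was limma 3.58.1 (R 4.3.3; lmFit, eBayes) over every row and all 8 arrays, with no covariate, Benjamini-Hochberg adjustment and a threshold of 0.05. The steps were tested on simulated data. Pairs of relatives were compared with exact permutation tests (scipy 1.17.1). GEO's platform annotation gave 14577 rows 1 symbol, 2849 several and 1069 none; the brightest row stood for a gene with several. Array coordinates are not used here.

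Members, lists and tests were chosen with earlier results of these data known. Named genes are all members, ESRP1 and ESRP2, up to 4 genes per pathway list with the smallest p, genes completing counts of 5 or fewer (LRIG1, LRIG3), and the 3 genes most like the member with the smallest p. CCND1, IER3, ATF3, FOSL1, PHLDA1, JUN, the named cell type markers and the promoter motifs were picked after values were seen. Alternatives covered scaling, a filter on dim rows, the pseudocount, the variance model, array weights, a replicate block, the threshold and each array left out.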

Additional observations from a re-analysis of the deposited data

Results flagged for a closer look

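In 76 groups of 4 arrays, those of the named genes in siESRP and in siGFP, 1 array stood apart from the other 3 by more than Dixon's 95% critical value in 1 group, where chance gives about 1 in 20, or 3.8. That group was ARAF in siESRP, in which replicate 1, at 1108, lay below the others, at 1215, 1222 and 1217, with a gap of 0.942 of the range. No group of the 10 feedback genes was among these.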

How the results depend on the processing

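Under the 16 alternatives run for each of the 10 feedback genes and the other named pathway genes, none of these genes changed direction. The filter on dim rows, the variance model, the replicate block and the stricter threshold leave log2 differences unchanged, so they could not show a reversal. The number of members called was 3, and 3 or 4 when 1 array was left out. SPRY1 was the gene added, without siESRP replicate 3 (adjusted p = 0.0108), with array weights (0.0165) and without the dimmest 25% of rows (0.0439). At adjusted p under 0.01, 1 member was called, DUSP6, with DUSP5 at 0.0127 and SPRED2 at 0.0126. The number of rows called was 3729, ran from 2719 to 3793 with 1 array left out, and was 1673 with arrays as deposited, 1808 at adjusted p under 0.01 and 1309 with at least 1.5-fold. For the other pathway genes the count of 20 became 12 to 17 with 1 array left out, 8 with arrays as deposited, 8 at adjusted p under 0.01 and 5 with at least 1.5-fold. Deviations of same-numbered siESRP and siGFP arrays from their group means had correlations of 0.102, 0.074, −0.308 and 0.035. Those of arrays with unlike numbers ran from −0.329 to 0.458. The titles do not say whether a shared number marks a shared experiment, and these correlations cannot decide it. With the replicate number as a block, 2292 rows and 10 of the other pathway genes were called, while DUSP6, DUSP5 and SPRED2 had adjusted p of 0.0149, 0.0244 and 0.0306. The pairs of relatives could hardly pass in this design, so their count of 0 under each of the 3 alternatives run says nothing about stability. Averaging over rows of a gene was not run, since each member has 1 row. The causes of these shifts were not tested, and values near 0 cannot be told from background.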
